A study of Homo sapiens with 6 samples.

Results

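The genes for the proteins of the cytosolic ribosome were followed in LX-2 cells, an immortalised cell line derived from human hepatic stellate cells, the matrix-making cells of the liver. They were chosen by gene symbol alone: RPL or RPS with a number, optionally followed by A, X or L, together with RPLP0, RPLP1, RPLP2 and RPSA. Of the 24789 rows with values in the deposited table, 81 met this rule, 32 for the small (40S) and 49 for the large (60S) subunit. A filter on low counts left 79 of them in the tests, 32 small and 47 large, among 16250 genes tested. The 2 left out were RPL3L and RPL10L. Kinases of the RPS6K family, RPS4Y genes, pseudogenes and read-through symbols were not members.

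Cells had received either a scrambled siRNA or an siRNA against AEBP1, in each case 50 nM with the reagent Lipofectamine 3000 for 48 hours, and RNA of 3 libraries per group was sequenced. AEBP1 encodes a protein of the extracellular matrix that binds collagen, and the comparison asks which transcripts differ after its siRNA. The sources used here do not say whether libraries came from separate transfections, so the spread behind each p-value is that of these samples and may be technical. All libraries are of 1 cell line, and no untransfected cells were analysed here. Total counts lay between 34433510 and 49432960 per library. Of 14 stellate or mesenchymal markers, 11 had a mean of at least 1 CPM, led by COL1A1, while LRAT, the retinol esterase of quiescent stellate cells, was at 0. Of 8 hepatocyte markers 1 reached that mean, and APOB and TTR were at 0.

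The targeted gene, AEBP1 itself, went against the label in 2 libraries. In CPM (counts scaled to a library size of 1000000), it was at 53.6, 48.7 and 25.1 in the scrambled libraries 1, 2 and 3, and at 29.7, 27.7 and 48.3 in the AEBP1 siRNA libraries 1, 2 and 3. Both libraries numbered 3 thus had the level of the other group, and all directions below rest on the labels. Scrambled and AEBP1 siRNA libraries, and names such as scrambled 3, stand for libraries so labelled. Another library, the one labelled AEBP1 siRNA 1, differed most over all genes: its score on the first principal component was 79.0, against -20.7 to -9.04 elsewhere. Group comparisons of the members and of the other gene lists are therefore given below with and without these libraries.

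A ribosome is built from ribosomal RNA and a set of small, mostly basic proteins most of which are needed in equal number, and cells make these proteins in step with growth. Their mRNAs are short and among the most abundant in dividing cells. Most begin with a C followed by a run of pyrimidines, the 5′ terminal oligopyrimidine (TOP) tract, through which the kinase mTOR and the protein LARP1 set how much of the mRNA is translated and kept. Surplus RPL5 and RPL11, bound to 5S ribosomal RNA, block MDM2 and so stabilise p53.

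The start of the transcription unit is printed for the members on which the values below turn, so that genes with and without the tract can be seen side by side. Sequences are from RefSeq (GRCh38.p14), 10 bases before to 20 bases from the annotated start, on the strand of the gene. Capitals mark the tract, defined as a C within 5 bases of the start followed by at least 4 pyrimidines.
RPL13, chr16:89560672-89560701, plus strand: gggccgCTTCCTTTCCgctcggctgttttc
RPL35, chr9:124861938-124861967, minus strand: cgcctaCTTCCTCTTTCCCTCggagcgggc
RPL41, chr12:56116623-56116652, plus strand: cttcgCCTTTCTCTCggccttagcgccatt
RPSA, chr3:39406710-39406739, plus strand: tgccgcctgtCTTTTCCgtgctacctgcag
RPLP0, chr12:120201092-120201121, minus strand: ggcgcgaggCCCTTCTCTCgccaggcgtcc
RPL28, chr19:55385922-55385951, plus strand: cctcgCCTTCCTCTTTCCgtctcaggtcgc
RPL14, chr3:40457329-40457358, plus strand: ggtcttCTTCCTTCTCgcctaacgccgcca
RPS27, chr1:153990752-153990781, plus strand: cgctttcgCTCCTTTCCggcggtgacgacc
RPS27L, chr15:63157458-63157487, minus strand: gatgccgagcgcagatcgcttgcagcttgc
RPS26, chr12:56041908-56041937, plus strand: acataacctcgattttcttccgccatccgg

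A tract of 10 bases was found in RPL13 and of 15 bases in RPL35, while RPS27L and RPS26 held none by this definition. Of the 81 members, 64 had a start window in the table used, and 53 of these (82.8%) held the tract, against 6886 of 27305 genes with a window (25.2%). A gene with several annotated starts counted if any of them held the tract. For RPL13, which had 3, the first start with a tract is printed. The letters CCGGAA, on either strand of the 300 bases around the start, were in 37 of the 64 members (57.8%) and in 20.1% of all windows. Their reverse complement, TTCCGG, can overlap the end of a tract. The letters AAGATGG were in 8 members (12.5%) and in 7.11% of all windows. A match describes the letters only. The libraries' build was hg19, so windows were joined to the measured genes by symbol and not by position.

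The mRNAs of the 79 tested members differed widely in level. Per length, on the deposited FPKM scale (fragments per kilobase of transcript, scaled to library size), their mean over the 6 libraries ran from 9.99 for RPS27L to 1315 for RPL35, with a median of 306. This order rests on the transcript lengths behind the FPKM. The length implied by count and FPKM had a median of 6.51 kb for RPL37 and 3.68 kb for RPS27L. Annotated lengths of the members were 359 to 1526 nucleotides. RPL37 had the highest mean CPM of the members, 1020, but a mean FPKM of 250. RPL35 and RPL41, both small proteins of the large subunit, were followed by RPL26, RPL27, RPS16 and RPS2 in the order of the means. RPL41, the shortest of the ribosomal proteins, had deposited FPKM values of 1232, 1028 and 1025 in the scrambled libraries and 1531, 970.1 and 1144 in the AEBP1 siRNA libraries. RPL26 and RPL27 had mean FPKM values of 836 and 819.6, but ranged from 745 to 1049 and from 686 to 1056 between libraries, so their order is within that spread.

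The lowest levels per length among the tested members belonged to a pair of paralogs with restricted or inducible use. RPS27L, a p53-inducible copy of RPS27, had FPKM values of 10.2, 8.47 and 7.54 in the scrambled libraries and 13.2, 9.94 and 10.6 in the AEBP1 siRNA libraries. Its partner RPS27 had a mean FPKM of 267.6. The difference was smaller by CPM, with means of 37.3 for RPS27L and 109.7 for RPS27. RPL39L, a copy of RPL39 best known from male germ cells, had a mean FPKM of 31.2, against 306 for RPL39. RPL10L, a copy of RPL10 also known from the testis, had 0 counts in all 6 libraries, which allows at most 3 counts per library. The main forms of these pairs were thus the higher ones in every library, RPS27 over RPS27L and RPL39 over RPL39L.

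RPL3L, the copy of RPL3 of heart and skeletal muscle, was near the limit of detection. It had 6, 3 and 9 counts in the scrambled libraries and 0 counts in each labelled AEBP1 siRNA. With the second group set to a floor of 3 counts in all, this is 5.09-fold lower. That value leaves out the counting error of the scrambled libraries. Without the filter on low counts the unadjusted p of RPL3L was 0.0326 and its adjusted p 0.993 in edgeR, so it did not pass. Its deposited FPKM values in the scrambled libraries were 0.0543, 0.0924 and 0.0808. RPL3 itself had a mean FPKM of 336.

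The 79 members moved together from library to library. They took 2.92%, 2.61% and 2.51% of all counts in the scrambled libraries 1, 2 and 3, and 3.63%, 2.46% and 2.76% in the AEBP1 siRNA libraries 1, 2 and 3. The library labelled AEBP1 siRNA 1 was the highest and that labelled AEBP1 siRNA 2 the lowest, both of the same group, so the groups overlapped. The mean share was 2.95% ± 0.610 (SD, n = 3) in the AEBP1 siRNA libraries and 2.68% ± 0.215 (SD, n = 3) in those labelled scrambled, a difference of 0.273 percentage points. Without AEBP1 siRNA 1 the difference was -0.069 percentage points, the opposite sign. In bulk RNA, fewer cells of a state and less RNA per cell cannot be told apart.

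Each member's deviation was taken as its log2 CPM minus its own mean over the 6 libraries. The median deviation was 0.38 in the library labelled AEBP1 siRNA 1 and -0.20 in that labelled AEBP1 siRNA 2, and it was -0.0024 in AEBP1 siRNA 3. In the libraries labelled scrambled it was 0.077, -0.093 and -0.16. The library labelled AEBP1 siRNA 1 was the highest of the 6 for 79 of 79 members, where it was the highest for 32.2% of all genes tested. Among other genes in the length classes of the members (below) this share was 38.3% to 55.3%. The library labelled AEBP1 siRNA 2 was the lowest for 49 members, scrambled 3 for 24, scrambled 2 for 5 and AEBP1 siRNA 3 for 1, where AEBP1 siRNA 2 was the lowest for 14.8% of all genes tested. These are counts over genes of the same libraries and carry no test. Both subunits had nearly the same medians in each library: 0.38 and 0.38 in AEBP1 siRNA 1 and -0.20 and -0.20 in AEBP1 siRNA 2.

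**Figure D1:**
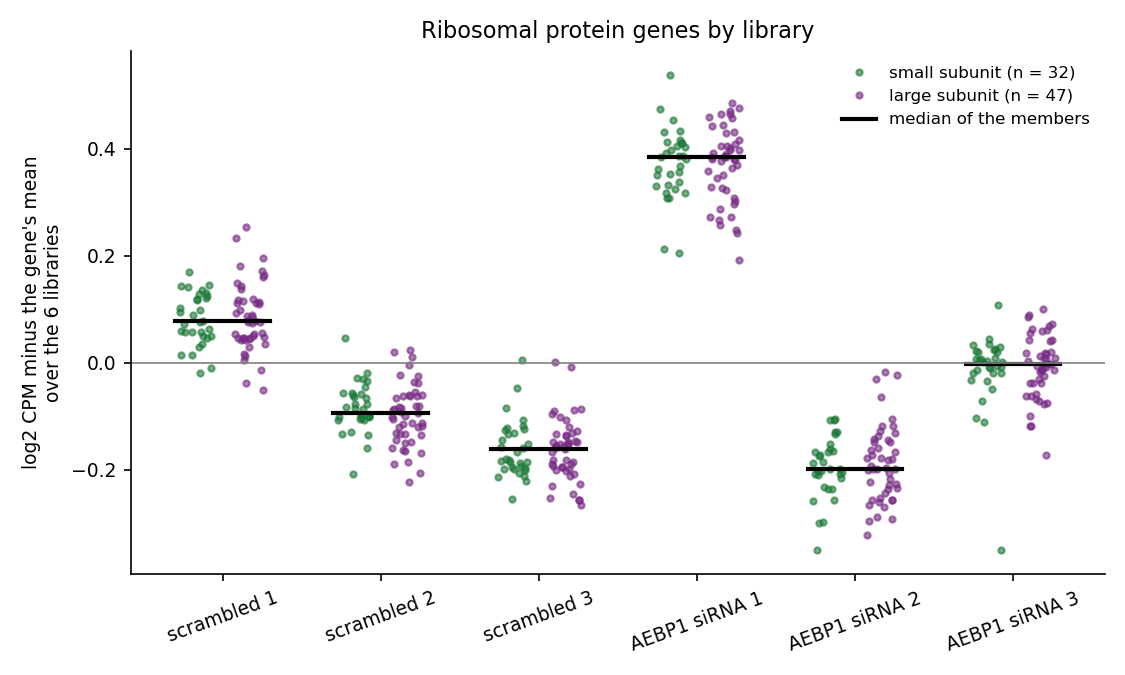
Deviation of each ribosomal protein gene (log2 CPM minus the gene's mean over the 6 libraries, vertical axis) in each library (horizontal axis); points are the 32 small-subunit and 47 large-subunit members tested, bars their median. All points of AEBP1 siRNA 1 lie above 0, from 0.19 to 0.54, and all points of AEBP1 siRNA 2 lie below 0, from -0.35 to -0.017.

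In fold terms the differences between libraries were modest. The highest library exceeded the lowest by 1.32-fold to 1.85-fold, with a median over members of 1.505-fold. The library labelled AEBP1 siRNA 1 was 1.17-fold to 1.55-fold above the mean of the other 5, with a median of 1.37-fold. It lay at least 1.2-fold above the median of the 6 libraries for 70 members, scrambled 1 did so for 3, and the remaining libraries for 0. RPS26 had the widest range between libraries, and RPL14 had the smallest excess in AEBP1 siRNA 1. The tested members had between 856 and 47183 counts in each library, so counting error was small beside these differences.

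Other measures also set AEBP1 siRNA 1 apart, and their part in the members' levels was not tested. It had the fewest total counts, 34433510. Summed over 6 epithelial markers, led by the keratin KRT18, it had 276 CPM against 199 to 221 in the other 5 libraries, although EPCAM, KRT19 and CDH1 had means of only 0.035, 0.012 and 0.033 CPM. It was also the lowest in summed endothelial markers, led by FLT1, at 55.8 CPM against 63.4 to 69.9 CPM. In summed leukocyte markers, led by CD68, it was not set apart, at 25.7 CPM against 18.8 to 25.1 CPM. PTPRC and PECAM1, defining markers of these cells, had means of 0.024 and 0.091 CPM. The stellate list summed to 3387 to 3886 CPM, with AEBP1 siRNA 1 at 3796 within that range.

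Between the labelled groups, every tested member had a higher estimate in the AEBP1 siRNA libraries, and none passed the test. The estimate was above 0 for 79 of 79 members, against 49.4% of all genes tested. In the length classes of the members (below) it was above 0 for 53.2% to 67.7% of other genes. Its median over the members was 0.14 on the log2 scale, 0.14 for the small and 0.14 for the large subunit, where the median of all genes tested was -0.0023. It ran from 0.0060 for RPS27 to 0.29 for RPL13. The direction was not stable: without AEBP1 siRNA 1 the estimate was above 0 for 14 of 79 members, with a median of -0.039.

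By edgeR's quasi-likelihood test with Benjamini-Hochberg adjustment over all genes, 0 of 79 members were called at an adjusted p under 0.05, where 0.00615% of all genes tested were called. An unadjusted p under 0.05 was reached by 0 members and by 1.33% of all genes, and DESeq2 called 0 members as well. The members' adjusted p-values lay between 0.991 and 0.997, and the smallest unadjusted p was 0.0942, for RPL13. Groups did not overlap in CPM for 0 members and for 5.93% of all genes tested. The 95% intervals all included 0. Their upper bounds lay between 0.33 and 0.65 on the log2 scale, below 1.5-fold for 76 members and below 2-fold for all 79 tested, and their lower bounds between -0.50 and -0.063. The standard errors were 0.122 to 0.222, with a median of 0.154, above the median estimate.

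**Figure D2:**
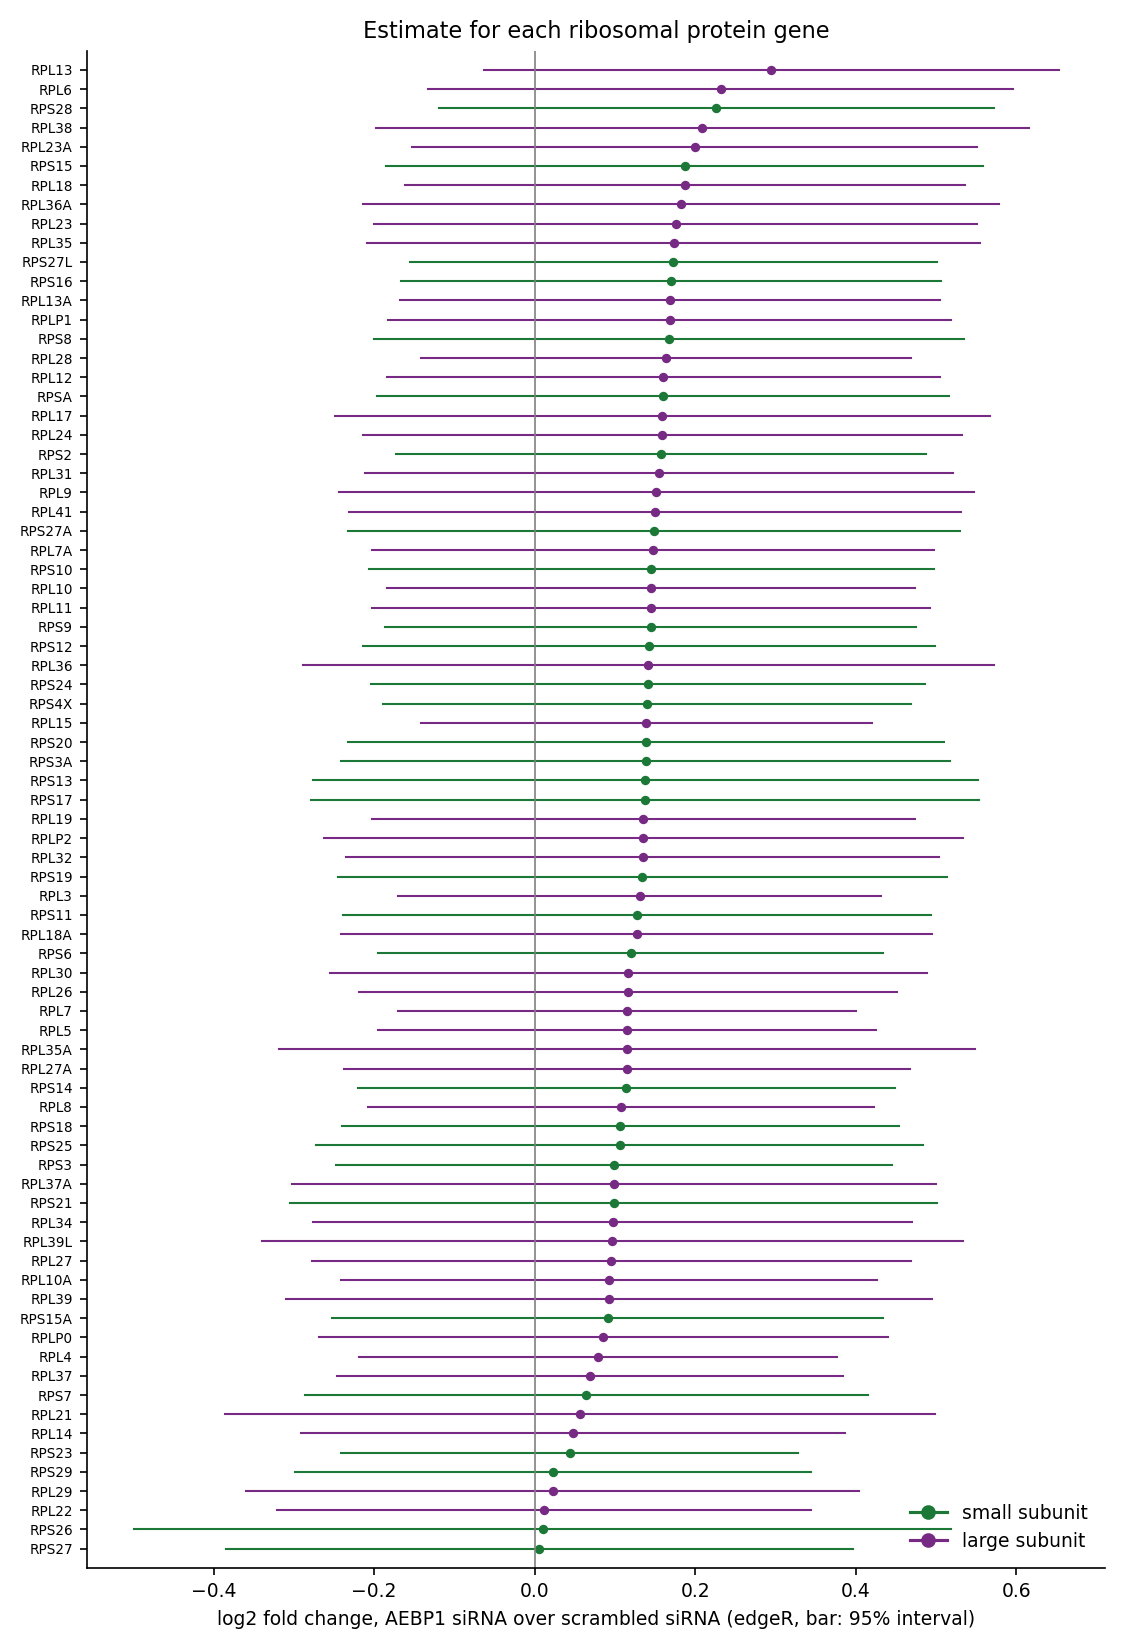
Log2 fold change of 78 of the 79 tested ribosomal protein genes (points, AEBP1 siRNA over scrambled siRNA, edgeR) with its 95% interval (lines), sorted by estimate and coloured by subunit. All points lie above 0, from 0.0060 for RPS27 to 0.29 for RPL13, and all intervals cross 0.

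Among the members of the large subunit, the proteins of the stalk that recruits elongation factors behaved alike. RPLP0, the base of the stalk, was at 800.0, 718 and 645 CPM in the scrambled libraries and at 923, 626 and 746 CPM in the AEBP1 siRNA libraries. The highest and the lowest value were both in the second group. Its log2 fold change by edgeR was 0.085 (SE 0.154, adjusted p = 0.991). RPLP1 and RPLP2, the acidic proteins that bind RPLP0 as dimers, had estimates of 0.17 and 0.14, with AEBP1 siRNA 1 the highest and AEBP1 siRNA 2 the lowest library for both.

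RPL5 and RPL11, the partners of 5S ribosomal RNA that bind MDM2, were highest in AEBP1 siRNA 1 too. RPL5 was at 505, 479 and 427 CPM in the scrambled libraries and at 602, 443 and 483 CPM in the AEBP1 siRNA libraries, a log2 fold change of 0.12 (SE 0.135, edgeR adjusted p = 0.991). RPL11 was at 234, 212 and 207 CPM and at 295, 198 and 229 CPM, a log2 fold change of 0.15 (SE 0.151, edgeR adjusted p = 0.991). In both genes AEBP1 siRNA 1 alone lay above all libraries labelled scrambled. RPL13A, which is released from the ribosome in interferon-treated monocytes and is often used as a reference gene, was at 881, 771 and 763 CPM and at 1104, 767 and 843 CPM. Its log2 fold change was 0.17, and its levels in AEBP1 siRNA 2 and 3 fell within the range of the libraries labelled scrambled.

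RPL13, a large-subunit protein, had the highest estimate and the smallest p of all members tested. It was at 289.7, 249 and 236 CPM in the scrambled libraries and at 391, 280.4 and 279 CPM in the AEBP1 siRNA libraries. The library labelled scrambled 1 lay above AEBP1 siRNA 2 and 3, so the groups overlapped. The log2 fold change by edgeR was 0.29 (SE 0.156, 95% interval -0.063 to 0.65, adjusted p = 0.991). RPL6, RPL38 and RPL23A, large-subunit proteins with the next highest estimates of that subunit, were at 0.23, 0.21 and 0.20. RPL6 lay between 403 and 434 CPM in the other 5 libraries and reached 625 CPM in AEBP1 siRNA 1.

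Other large-subunit members had estimates near 0. RPL22, which also binds viral and cellular RNAs outside the ribosome, was at 186, 163 and 149 CPM in the scrambled libraries and at 196, 139.8 and 166 CPM in the AEBP1 siRNA libraries. Its log2 fold change by edgeR was 0.012 (SE 0.145, adjusted p = 0.996). RPL29 had an estimate of 0.022 and RPL14 of 0.048. RPL36A, the X-linked form whose copy RPL36AL lies outside the rule, had an estimate of 0.18.

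On the small subunit, RPSA, which is also described as a laminin receptor precursor, was also highest in AEBP1 siRNA 1, while its lowest library was scrambled 3. It was at 805, 782 and 696 CPM in the scrambled libraries and at 1061, 718 and 771 CPM in the AEBP1 siRNA libraries. Only AEBP1 siRNA 1 lay above the range of the other group. Its log2 fold change by edgeR was 0.16 (SE 0.155, adjusted p = 0.991). RPS6, the substrate of the S6 kinases, had an estimate of 0.12, and RPS27A, which is made as a fusion with ubiquitin, had 0.15. RPS4X, the X-linked form of a protein with a Y-linked copy outside the rule, had an estimate of 0.14, and RPS2 and RPS16 had 0.16 and 0.17.

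RPS28, which lies near the exit of the mRNA channel, had the highest estimate of the small subunit. RPS28 was at 138, 114 and 115 CPM in the scrambled libraries and at 173, 122 and 133 CPM in the AEBP1 siRNA libraries. Its log2 fold change by edgeR was 0.23 (SE 0.150, adjusted p = 0.991). The library labelled scrambled 1 lay above AEBP1 siRNA 2.

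The lowest estimate of all was that of RPS27. It was at 122, 101 and 105 CPM in the scrambled libraries and at 137, 85.2 and 108 CPM in the AEBP1 siRNA libraries, so the second group held both extremes. RPS29 and RPS23, small-subunit proteins with the next estimates above RPS26, were at 0.023 and 0.044. The inducible copy RPS27L had an estimate of 0.17, and its CPM values of 38.5, 34.3 and 32.3 against 47.2, 33.8 and 37.5 overlapped between groups. For the other paralog pairs the estimates were 0.097 for RPL39L and 0.093 for RPL39, 0.13 for RPL3 and 0.15 for RPL10. None of the differences within a pair was tested.

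Most members kept close to the common course. After the median of the members in each library was taken off, 52 of 79 lay within 0.1 of it on the log2 scale in every library, and 78 within 0.2. RPS26 was the exception. It was at 176, 156 and 163 CPM in the scrambled libraries and at 235, 135 and 127 CPM in the AEBP1 siRNA libraries. It was the only member with its lowest value in AEBP1 siRNA 3, at -0.35 from the members' median there, and above that median by 0.17 in scrambled 3 and by 0.15 in AEBP1 siRNA 1. By the definition above RPS26 has no tract, though a run of pyrimidines follows its annotated start. It has many processed pseudogenes, none of which had a row of its own here, so shared reads cannot be told apart.

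Smaller departures were seen in RPL14, RPL13, RPS29, RPL35A and RPL28, named after their values were seen where the rule for named genes did not hold them. RPL28 was at 332, 287 and 335 CPM in the scrambled libraries and at 420.3, 329 and 318 CPM in the AEBP1 siRNA libraries. It lay above the members' median by 0.16 in scrambled 3 and by 0.17 in AEBP1 siRNA 2, the libraries in which most members were low. RPL14 lay below it by -0.19 in AEBP1 siRNA 1 and above it by 0.11 in scrambled 2. RPL35A lay above it by 0.18 in scrambled 1, and RPS29 below it by -0.18 in AEBP1 siRNA 1.

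Members with and without a tract at the annotated start, by the definition above, did not separate in these levels. The 53 tested members with a tract had a median estimate of 0.14 and a median deviation of 0.38 in AEBP1 siRNA 1. The 10 with a window but no tract, RPL15, RPL17, RPL27, RPL6, RPL9, RPS15, RPS26, RPS27L, RPS29 and RPS4X, had medians of 0.15 and 0.40. The deviations in that library ran from 0.19 to 0.49 with a tract and from 0.20 to 0.54 without one. No test was made of this split.

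The libraries entering the comparison set the sign of the members' estimates. Without the library labelled AEBP1 siRNA 1, 65 of 79 members had an estimate below 0. An unadjusted p under 0.05 by edgeR was reached by 2 of them, and the share of all genes at that threshold was not computed for this fit. Without AEBP1 siRNA 2 the estimate was above 0 for 79 members, with a median of 0.25, and without scrambled 1 also for 79, with a median of 0.20. Without scrambled 3 the median was 0.075, with 73 members above 0. Without both libraries numbered 3, in which AEBP1 went against the label, 74 members were above 0, with a median of 0.12.

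When these 2 libraries and AEBP1 siRNA 1 were all left out, 4 of 79 members were above 0 and the median was -0.19. This fit compares scrambled 1 and 2 with AEBP1 siRNA 2 alone, whose spread is taken from the scrambled libraries. The members' estimates then ran from -0.39 to 0.092. The number of members called was 0 in every one of the settings run.

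**Figure D3:**
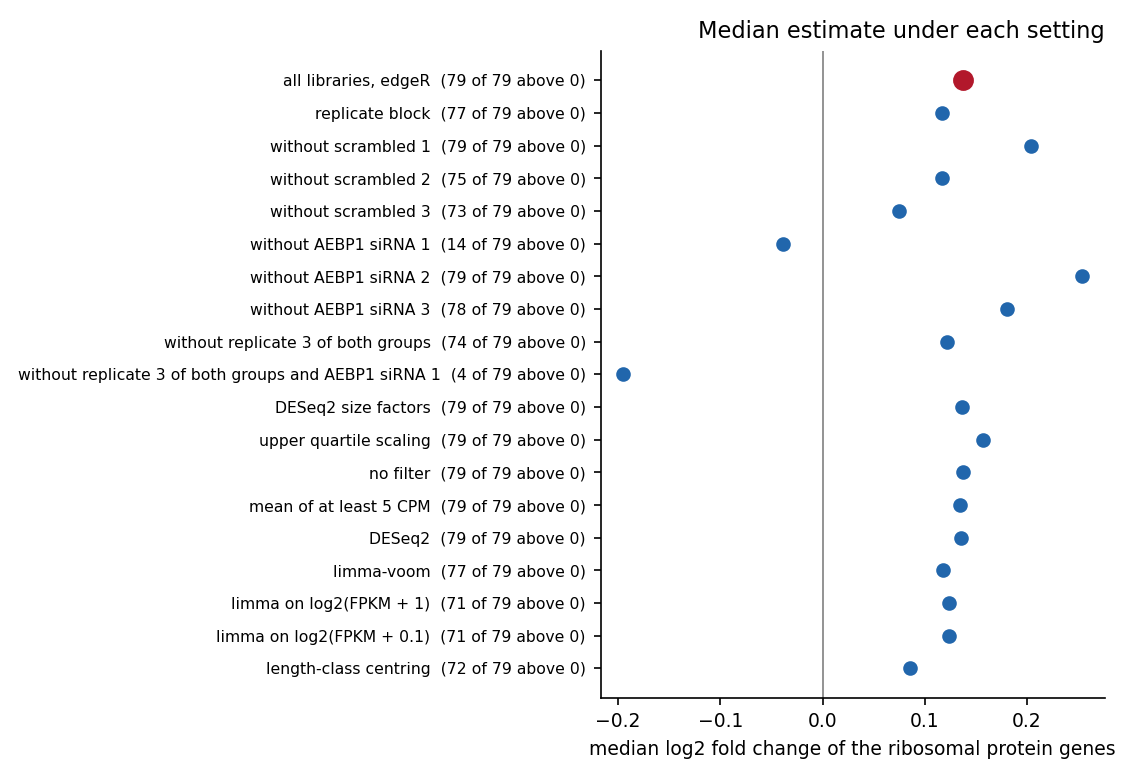
Median log2 fold change of the tested ribosomal protein genes (horizontal axis, AEBP1 siRNA over scrambled siRNA) under each setting (vertical axis), with the number of members above 0 beside each name; the large point is the fit of all 6 libraries by edgeR. The medians are above 0 except without AEBP1 siRNA 1 (-0.039) and without that library and both libraries numbered 3 (-0.19).

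AEBP1 siRNA 1 was also the highest library for most ribosome-like genes, TOP mRNAs and mitochondrial ribosomal proteins outside the rule. Of 6 ribosomal or ribosome-like proteins outside the rule, 0 were called in either direction, 5 had higher estimates and the median was 0.16. AEBP1 siRNA 1 was the highest library for 5 of them and AEBP1 siRNA 2 the lowest for 1. FAU, the precursor of ribosomal protein S30, was at 221, 202 and 201 CPM in the scrambled libraries and at 296, 199.7 and 229 CPM in the AEBP1 siRNA libraries. RPL26L1, RPL36AL and RPL22L1 had estimates of 0.21, 0.13 and 0.11. RPL7L1, a homologue of RPL7, was the member of this list that stayed apart, at 275 to 285 CPM in scrambled 1 to 3 and 265 to 278 CPM in AEBP1 siRNA 1 to 3 (log2 fold change -0.043, SE 0.0868, edgeR adjusted p = 0.991).

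Of 19 mRNAs outside the rule that are known for a TOP tract, 2 of which (FAU among them) are also in the list of 6, 0 were called in either direction and 17 had a higher estimate. AEBP1 siRNA 1 was the highest library for 17 and AEBP1 siRNA 2 the lowest for 2. Their median estimate was 0.091. EEF1A1, the elongation factor that brings aminoacyl-tRNA to the ribosome, was at 5295, 5066 and 4740.2 CPM in the scrambled libraries and at 6202, 4871 and 5110 CPM in the AEBP1 siRNA libraries. Its order of libraries was close to that of the members, with the highest value in AEBP1 siRNA 1, and the lowest in scrambled 3. EIF3F, a subunit of an initiation factor, had an estimate of 0.20 (SE 0.127, edgeR adjusted p = 0.991).

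The proteins of the mitochondrial ribosome, which is built from separate genes, had their highest level in AEBP1 siRNA 1 as well. Of 78 tested, 0 were called, 73 had a higher estimate and the median was 0.11. AEBP1 siRNA 1 was the highest library for 70 and AEBP1 siRNA 2 the lowest for 24. MRPL49 had 145, 137 and 144 CPM in the scrambled libraries and 175, 146 and 132 CPM in the AEBP1 siRNA libraries, and MRPL58 and MRPL9 had estimates of 0.28 and 0.17. The cytosolic members had a median deviation of 0.38 in AEBP1 siRNA 1 and the mitochondrial ones of 0.32, a difference that was not tested.

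Genes of ribosome assembly and of the control of these mRNAs had median estimates nearer to 0, a difference from the members that was not tested. Of 42 ribosome biogenesis genes, 0 were called, 28 had a higher estimate and the median was 0.060. AEBP1 siRNA 1 was the highest library for 24 of them, with a median deviation of 0.14 there, and AEBP1 siRNA 2 the lowest for 9. Over all genes tested, AEBP1 siRNA 1 was the highest for 32.2%. NCL (nucleolin) was at 1296, 1227 and 1367 CPM in the scrambled libraries and at 1456, 1339 and 1269 CPM in the AEBP1 siRNA libraries. HEATR1, which is needed for transcription of ribosomal DNA, was at 83.2, 81.3 and 96.8 CPM and at 46.5, 77.2 and 83.6 CPM. AEBP1 siRNA 1 was the highest library for NCL and the lowest for HEATR1, while AEBP1 siRNA 2 and 3 lay within or close to the range of the scrambled libraries. RRP9, a protein of the U3 particle, had an estimate of 0.14. Of 15 genes that control translation of these mRNAs, 0 were called, 6 had a higher estimate and the median was -0.046. Their median deviation was -0.23 in AEBP1 siRNA 1, which was the highest library for 6 of them, and AEBP1 siRNA 2 was the lowest for 0. Here the S6 kinase gene RPS6KB1 was at 63.5 CPM in AEBP1 siRNA 1 against 80.4 to 89.4 CPM in the other 5 libraries, and EIF4EBP1, a repressor of cap-dependent initiation, was at 225 CPM against 142 to 182 CPM. CNBP, a protein that binds TOP mRNAs, had an estimate of 0.072.

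These lists too depended on the libraries. Without AEBP1 siRNA 1 the median estimates were -0.023 for the 6 ribosome-like genes (3 higher), 0.00031 for the 19 TOP mRNAs (10 higher), -0.026 for the 78 mitochondrial ribosomal proteins (30 higher), 0.0070 for the 42 biogenesis genes (22 higher) and -0.011 for the 15 control genes (5 higher). Without both libraries numbered 3 they were 0.23, 0.096, 0.12, 0.098 and 0.014, and 0 genes of these lists were called in either of these fits. Without all 3 libraries they were -0.049, -0.088, -0.11, -0.017 and -0.048. In that last fit, which called 1.46% of all genes with 1 library on one side, the biogenesis genes MRTO4 and NOLC1 were called, 1 higher and 1 lower, and are named after their values were seen. These fits of the other lists were added after the data were seen.

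Length of the transcript moved with these deviations. The members' protein-coding transcripts had a median length of 683 nucleotides (359 to 1526), against 1866 for the 13783 other genes tested that had a length. In AEBP1 siRNA 1 the median deviation of the other genes was 0.057 for lengths under 600 nucleotides and 0.15 from 600 to 900, reached 0.18 from 900 to 1200, and went down to -0.27 above 4000. The members lay above the other genes of their own length class, at 0.39 under 600 nucleotides and 0.38 from 600 to 900. In AEBP1 siRNA 2 the members' medians in those classes were -0.21 and -0.19 and those of the other genes -0.029 and -0.042. AEBP1 siRNA 1 was the highest library for 38.3% of other genes under 600 nucleotides and 50.5% from 600 to 900. From 900 to 1200 and from 1200 to 1800 nucleotides the shares were 55.3% and 45.7%. Estimates were above 0 for 53.2%, 63.1%, 67.7% and 59.6% of other genes in the same order of classes.

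**Figure D4:**
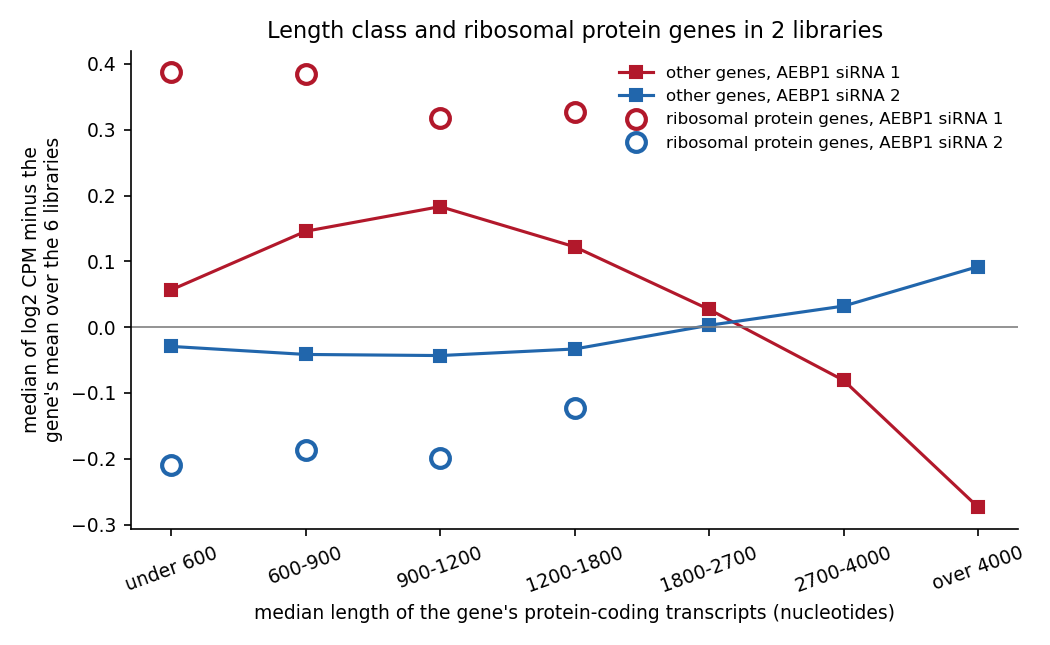
Median deviation (log2 CPM minus the gene's mean over the 6 libraries, vertical axis) of other genes (squares and lines) and of ribosomal protein genes (rings) by class of median protein-coding transcript length in nucleotides (horizontal axis), in AEBP1 siRNA 1 and 2. In AEBP1 siRNA 1 the other genes run from 0.18 in the class from 900 to 1200 nucleotides to -0.27 above 4000, and the rings lie between 0.32 and 0.39.

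When the median of the other genes of the same length class was taken off in each library, a step added after the data were seen, the members' median was 0.25 in AEBP1 siRNA 1 and -0.16 in AEBP1 siRNA 2. AEBP1 siRNA 1 was then the highest library for 74 members, scrambled 1 for 4 and AEBP1 siRNA 3 for 1. With this correction in the fit, 72 of 79 members had an estimate above 0, with a median of 0.085, and 0 were called. The part of length in the members' levels was not tested further.

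Counts and the deposited FPKM told different stories for a few members. A count divided by its FPKM and library size gives the transcript length that the authors' FPKM implies. This length varied by more than 1.5-fold between libraries for 4 members, RPL37, RPL14, RPL23 and RPS20, and by more than 2-fold for 3, where the median over members was 1.04-fold. These genes were looked at after their values were seen. RPL37 had 44161, 47183 and 41703 counts in the scrambled libraries and 41853, 31983 and 44502 in the AEBP1 siRNA libraries, while its FPKM was 716 in scrambled 1 and 127 to 188 in the other 5 libraries. The implied length was 1.49 kb in scrambled 1 and 5.91 to 6.69 kb elsewhere.

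RPL14 and RPL23 showed the same kind of difference on a smaller scale. RPL14 had a higher mean FPKM in the scrambled libraries, at 123, 83.8 and 68.8 against 56.7, 74.1 and 57.8. Scrambled 3 lay below AEBP1 siRNA 2, so the groups overlapped by FPKM. Its CPM values of 241, 219 and 181 against 247, 185 and 231 overlapped too. On log2(FPKM + 1) its estimate was -0.51 by limma (adjusted p = 0.992), where the counts gave 0.048. RPL23 had FPKM values of 206.5, 229 and 334 against 427, 327 and 412, and CPM values of 577, 515 and 504 against 762.3, 495 and 546. Levels per length of these genes are therefore uncertain, and the comparisons above rest on counts.

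**Figure D5:**
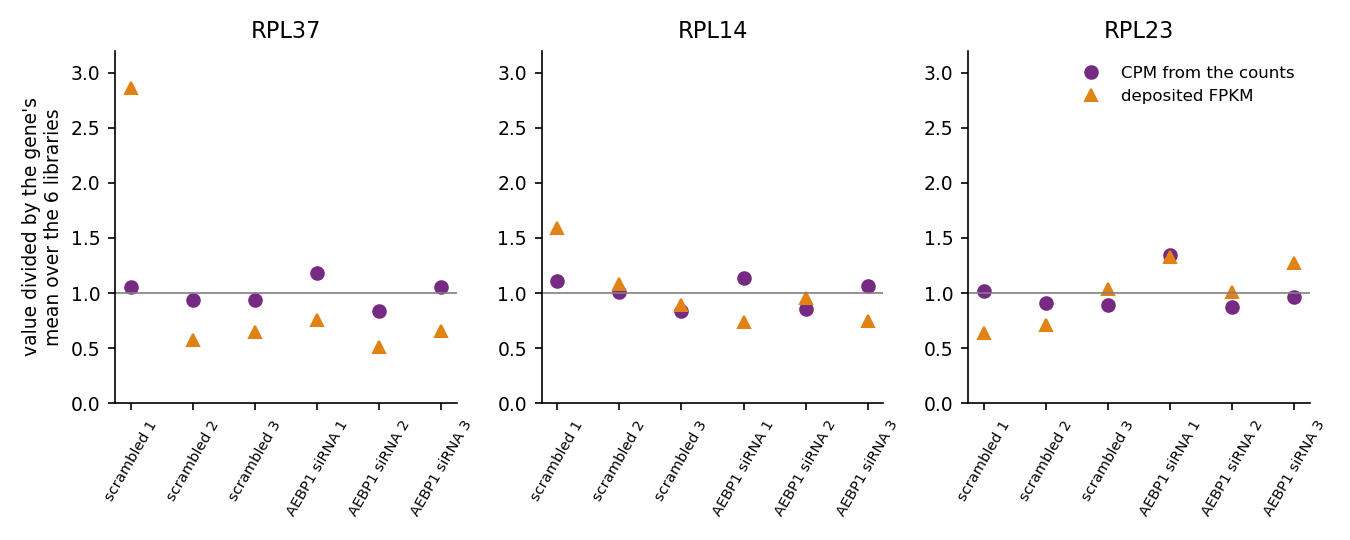
CPM from the counts (circles) and deposited FPKM (triangles) of RPL37, RPL14 and RPL23 in the 6 libraries, each divided by the gene's own mean (vertical axis, linear from 0). The circles spread less than the triangles in each gene, and the FPKM of RPL37 in scrambled 1 lies well above its values in the other 5 libraries.

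For 3 members a read-through gene spans the same exons, and since the strand and multi-mapping settings of the counting are not named by the sources used here, reads can be shared. RPL36A-HNRNPH2 had 72, 37 and 1562 counts in the scrambled libraries and 80, 40 and 841 in the AEBP1 siRNA libraries, high in both libraries numbered 3. RPS10-NUDT3 had 1174, 131 and 438 counts and 23, 396 and 1153 counts. RPL17-C18orf32 had 1251 to 2663 counts. Summed with its read-through gene, RPL36A had means of 205 CPM in the scrambled libraries and 226 in the AEBP1 siRNA libraries, RPL17 of 362 and 397, and RPS10 of 311 and 341.5. The direction of these means was that of the members alone.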

How the data were processed

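RNA sequencing of 6 LX-2 libraries, 3 per group, was analysed. The authors deposited raw counts and FPKM values per gene, per the file headers; hg19 is the build in the submitters' processing notes. The sources used here name no aligner, counting tool, annotation or strand setting. Of the rows with values, 19974 had an Ensembl ID and 4815 were assembled loci; 17 rows without values were left out and 27 symbols turned into dates were restored by gene ID. Low counts were filtered by filterByExpr and libraries scaled with the trimmed mean of M values. Groups were compared by the quasi-likelihood test of edgeR 4.0.16 (R 4.3.3) with Benjamini-Hochberg adjustment over 16250 genes. The script was tested on simulated data. Deviations use log2 CPM with a prior count of 0.5. Alternatives used DESeq2 1.42.0, limma 3.58.1 on voom weights or on log2(FPKM + 1) and log2(FPKM + 0.1), other scalings and filters, and left-out libraries. Transcript lengths were medians of protein-coding transcripts in GENCODE 29, used as lengths only. No 2 libraries had counts equal within sampling noise (the lowest ratio of chi-square to its degrees of freedom was 7.79). That ratio was between scrambled 3 and AEBP1 siRNA 2, and the next, 9.16, between scrambled 2 and AEBP1 siRNA 3. By this ratio each of the 6 libraries, not only those numbered 3, was nearest to a library of the other label. Scrambled 1 was nearest to AEBP1 siRNA 3, at 12.5, and AEBP1 siRNA 1 to scrambled 1, at 62.3. The cause was not tested. Intervals and floors cover counting error only where stated.

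The members and gene lists were chosen with earlier results of these data known. Named were fixed members by role, the 6 highest and 6 lowest by FPKM and by fold change, the 6 with the smallest p, and of each other list the highest by CPM and 2 with the smallest p. Single values of a few of these genes are not reported here; they stay in the counts and medians.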

Additional observations from a re-analysis of the deposited data

How the results depend on the processing

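The members called numbered 0 under every alternative run, and the correction for transcript length was added after the data were seen. Leaving out each library gave 14 to 79 members with a higher estimate, a median of -0.039 to 0.25 and 0 to 2 genes called over the whole table; the low end of the members' values is the fit without AEBP1 siRNA 1. Without replicate 3 of both groups and without AEBP1 siRNA 1, 4 members were higher, their median was -0.19 and 249 genes were called; that fit has 1 library on one side. The genes called over the whole table, 1 in the comparison as reported, were 2 with the replicate block, 3 with no filter, 6 by DESeq2, 2 by limma-voom, 3 by limma on log2(FPKM + 0.1) and 0 with length-class centring. The replicate block left 77 members higher, with a median of 0.12. Deviations of libraries with the same number had correlations of 0.067, -0.011 and -0.095. With 3 libraries per group these values cannot show whether such libraries shared a culture or a day. The difference in the members' share of counts was -0.069 to 0.518 percentage points with each library left out, 0.283 without both libraries numbered 3, and 0.276 over Ensembl genes. The sum of members and pseudogenes was not run, as no row used here has such a symbol.

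Of the estimates of single named members under these alternatives, 552 values kept their sign and 96 did not, none of them called. Those with the opposite sign were, with the replicate block, -0.047 (RPS26) and -0.016 (RPS27), and by limma-voom -0.046 (RPS26) and -0.016 (RPS27). On log2(FPKM + 1) they were -0.033 (RPL10), -0.51 (RPL14), -0.018 (RPL22), -0.034 (RPS26), -0.0093 (RPS27) and -0.017 (RPS29), and on log2(FPKM + 0.1) -0.034 (RPL10, RPS26), -0.52 (RPL14), -0.018 (RPL22), -0.0094 (RPS27) and -0.017 (RPS29). With length-class centring they were -0.018 (RPL14), -0.042 (RPL22), -0.031 (RPL29), -0.025 (RPS23), -0.078 (RPS26) and -0.013 (RPS27). Without replicate 3 of both groups they were -0.092 (RPL14), -0.058 (RPL22), -0.086 (RPL29), -0.0093 (RPS27) and -0.077 (RPS29). Without these and AEBP1 siRNA 1 they were -0.14 (RPL10, RPS16, RPSA), -0.17 (RPL11), -0.11 (RPL13A, RPS27L), -0.31 (RPL14), -0.32 (RPL22), -0.069 (RPL23A), -0.18 (RPL26, RPL35), -0.28 (RPL27, RPLP0), -0.22 (RPL27A, RPL38, RPS23, RPS27A), -0.39 (RPL29, RPS27), -0.15 (RPL3, RPL5), -0.12 (RPL36A, RPS2, RPS4X), -0.24 (RPL39, RPL39L, RPL41), -0.13 (RPLP1), -0.27 (RPLP2), -0.29 (RPS26), -0.045 (RPS28), -0.35 (RPS29) and -0.16 (RPS6). With each library left out the estimates ranged from -0.12 to 0.13 (RPL22), -0.11 to 0.16 (RPL29), -0.33 to 0.17 (RPS26), -0.18 to 0.16 (RPS27), -0.058 to 0.16 (RPL14), -0.078 to 0.16 (RPS29), -0.016 to 0.25 (RPL10), -0.029 to 0.27 (RPL11), -0.00024 to 0.27 (RPL13A), -0.045 to 0.23 (RPL26), -0.083 to 0.24 (RPL27), -0.031 to 0.22 (RPL27A), -0.034 to 0.30 (RPL35), -0.012 to 0.31 (RPL36A), -0.11 to 0.22 (RPL39), -0.12 to 0.22 (RPL39L), -0.024 to 0.30 (RPL41), -0.023 to 0.21 (RPL5), -0.072 to 0.21 (RPLP0), -0.016 to 0.28 (RPLP1), -0.040 to 0.28 (RPLP2), -0.059 to 0.15 (RPS23), -0.044 to 0.28 (RPS27A), -0.022 to 0.24 (RPS4X), -0.024 to 0.22 (RPS6) and -0.032 to 0.27 (RPSA). Apart from the left-out libraries, the cause of these changes was not tested.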
